A study of Rattus norvegicus with 10 samples.

Results

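The genes described are the AP-1, Egr and Myc immediate-early genes, a set of 10 chosen by name (Fos, Fosb, Jun, Junb, Jund, Egr1, Egr2, Atf3, Myc and Ier2). The choice used no threshold on measured values, but it was made with earlier results of these data known. On the arrays 8 of the 10 had a probe, 9 probes in all, out of 13426 genes with a symbol and 40945 probes with a value on every array. Fosb and Egr1 were matched to no probe and were not analysed here. Liver RNA of 10 male rats was measured 24 h after total-body irradiation (TBI) or at the matching time without it, on a separate array for each rat. The 3 control rats were labelled as given 0 Gy. The 3 TBI rats received 6.5 Gy from a cobalt source at 2 Gy/min. The 4 MASM + TBI rats received the same irradiation after 3 days of MASM, a derivative of the plant alkaloid matrine, by mouth at 30 mg/kg a day, and no rat received MASM alone. The paper names a slightly lower dose than the labels, and names the rats as Wistar. Whether the control and TBI rats on these arrays were given the vehicle is not stated in their labels. The question of the design is whether MASM given before TBI alters the liver transcripts that differ after TBI.

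Before the values, 3 features of the arrays bear on them. The cluster picture in the paper prints the array names of the control group under TBI and those of the TBI group under control, whereas the deposited labels, used throughout, give the reverse. Every direction between these groups follows the labels, and the running text of the paper, unlike the picture, orders its groups as the labels do. Lymphocyte markers, of interest here because lymphocytes are sensitive to radiation, gave a mixed picture between the arrays labelled TBI and control. Of 10 T cell markers 3 passed the adjusted test of limma (adjusted p under 0.05) downward and 0 upward, with 4 of the 10 estimates above 0, and of 5 B cell markers 1 passed downward and 0 upward, with 2 of the 5 above 0 (3.19% of all probes passed downward). The B cell receptor component Cd79b was at 6.11, 4.83 and 4.63 in controls, well above background on 3 of 3 arrays, and on 0 of the irradiated arrays. The summed log2 signal of the B cell markers was 11.88 to 12.62 in controls, 10.88 to 15.38 in TBI rats and 10.38 to 11.30 in MASM + TBI rats, and nearly all of it was Cd74, the MHC class II invariant chain, which macrophages also make. Cd74 was at 11.84, 12.44 and 12.60 in controls and at 10.86, 15.29 and 15.38 in TBI rats. All 3 TBI arrays were on a slide of their own, the controls shared a slide with MASM + TBI rat 3, and the other MASM + TBI rats were on the remaining slide. Slide and group can therefore not be told apart for TBI. The 12 hepatocyte markers were well above background on every array, with a summed log2 signal between 20.50 and 20.70. The share of spots well above background was 57.2% to 59.9% on control arrays, 64.1% to 70.1% on TBI arrays and 56.2% to 60.2% on MASM + TBI arrays, and 0 spots were saturated.

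Immediate-early genes are transcribed within minutes of a stimulus, without new protein synthesis, from promoters read by serum response factor and CREB. Their products are mostly transcription factors. Fos and Jun proteins pair as the AP-1 factor, Egr proteins bind GC-rich sites through zinc fingers, and Myc binds the E-box with its partner Max. In liver this class is known from the early response to partial hepatectomy, to toxicants and to handling of the tissue.

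Promoter sequence was held for 6 of the 10 genes in the RefSeq table of build GRCr8, and the 250 bases before the start were searched on both strands for a CArG box (CC, A or T at the inner positions, GG), TGACGTCA, TGANTCA, GCGNGGGCG and CACGTG. The following 3 promoters are shown because their genes were measured and hold at least 1 of these motifs, which are in capitals. Each is written 5′ to 3′ in the direction of the gene.
Jund (GRCr8, chr16:18769772-18770021, minus strand): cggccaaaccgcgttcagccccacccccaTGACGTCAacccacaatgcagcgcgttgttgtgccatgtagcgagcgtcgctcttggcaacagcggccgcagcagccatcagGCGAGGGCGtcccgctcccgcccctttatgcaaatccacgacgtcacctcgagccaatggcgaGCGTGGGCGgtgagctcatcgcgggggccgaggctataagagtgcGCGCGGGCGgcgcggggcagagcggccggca
Ier2 (GRCr8, chr19:40399123-40399372, plus strand): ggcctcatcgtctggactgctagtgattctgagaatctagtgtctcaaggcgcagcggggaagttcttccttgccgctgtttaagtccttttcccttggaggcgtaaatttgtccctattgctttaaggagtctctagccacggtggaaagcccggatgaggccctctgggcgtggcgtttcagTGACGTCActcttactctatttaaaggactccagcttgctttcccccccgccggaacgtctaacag
Egr2 (GRCr8, chr20:21054442-21054691, minus strand): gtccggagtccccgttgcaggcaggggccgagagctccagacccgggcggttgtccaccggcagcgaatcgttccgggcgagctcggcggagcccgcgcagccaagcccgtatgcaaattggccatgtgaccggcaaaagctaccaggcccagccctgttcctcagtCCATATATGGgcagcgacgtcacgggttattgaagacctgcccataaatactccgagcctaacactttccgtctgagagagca
The Jund promoter held the CREB/ATF site TGACGTCA once and the Egr-type GCGNGGGCG at 3 places. Ier2 held TGACGTCA, and Egr2 held a CArG box, the element bound by serum response factor. Of all 33469 promoters in the table, 1.59% held TGACGTCA, 4.29% GCGNGGGCG and 1.5% a CArG box in the same window. TGANTCA and CACGTG, found in 6.34% and 5.59% of promoters, were in none of the 6. Junb held no motif of the search, which says only that these letters are not in its window. A match is a description of the sequence and was not tested against the levels below.

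Across the 10 livers the 8 genes were higher on average after TBI than in controls, by 0.56 (Jund) to 2.28 (Jun) on the log2 scale and, for 7 of the 8, had a mean between those groups in MASM + TBI rats. None passed the adjusted test in any comparison, and the rats of a group differed widely. Levels are log2 normalized intensities, which can be compared between rats for a gene but not between genes. Fold changes are given with the standard error (SE) from limma, and an adjusted p under 0.05 counts as passing. Because this is whole liver, fewer cells of a type and less RNA per cell cannot be told apart.

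**Figure D1:**
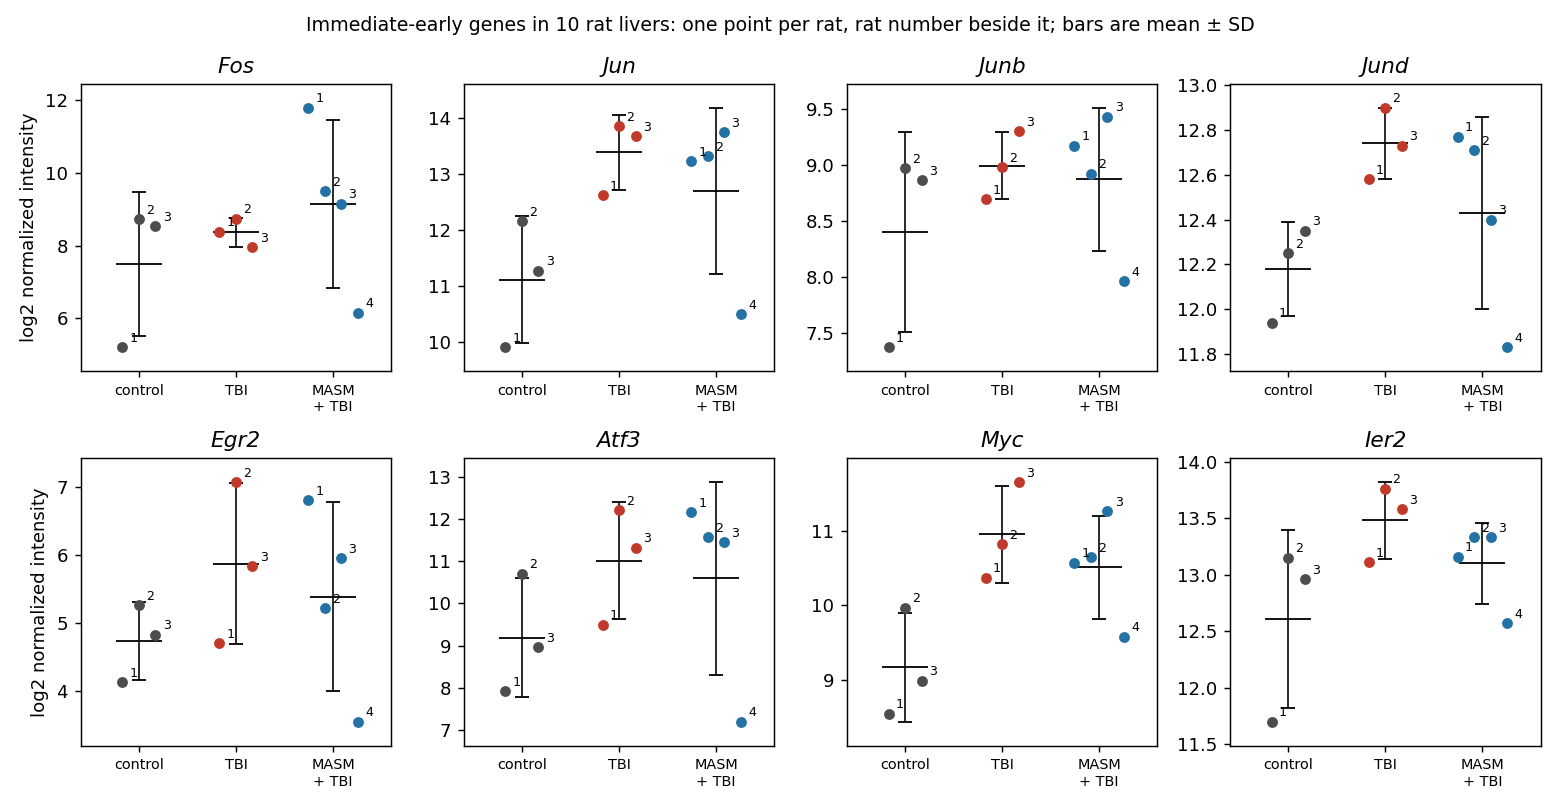
Log2 normalized intensity (vertical axis, a separate scale for each gene) of 8 immediate-early genes in 3 control, 3 TBI and 4 MASM + TBI rats; each point is a rat with its number, and the bars are the mean ± SD of the group. Control rat 1 is the lowest control and MASM + TBI rat 4 the lowest rat of its group for all 8 genes.

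Among the Jun proteins, which form AP-1 with Fos or with each other, Jun showed the largest difference. Jun was at 9.90, 12.16 and 11.27 in control rats 1 to 3, at 12.62, 13.86 and 13.68 in TBI rats 1 to 3, and at 13.23, 13.32, 13.75 and 10.49 in MASM + TBI rats 1 to 4. Every TBI rat was above every control, while MASM + TBI rat 4 fell within the control range. The mean was 11.11 ± 1.14 (SD, n = 3) in controls, 13.39 ± 0.67 (SD, n = 3) after TBI and 12.70 ± 1.49 (SD, n = 4) in MASM + TBI rats. Jun differed by a log2 fold change of 2.28 (SE 0.898, 95% interval 0.22 to 4.33, adjusted p = 0.173) between TBI and control, a 4.84-fold difference. MASM + TBI rats differed from controls by 1.59 (SE 0.84, adjusted p = 0.403) and from TBI rats by -0.69 (SE 0.84, interval -2.61 to 1.23, adjusted p = 0.721).

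Junb, which in many cells restrains growth that Jun promotes, was at 7.37, 8.97 and 8.86 in the controls. The TBI rats held 8.69, 8.98 and 9.30 and the MASM + TBI rats 9.17, 8.92, 9.43 and 7.96. The groups overlapped in every comparison, and only control rat 1 and MASM + TBI rat 4 were under the rest. The log2 fold change of TBI over control was 0.59 (SE 0.492, adjusted p = 0.508). Without control rat 1 it was 0.072, and that of MASM + TBI over control turned from 0.47 to -0.047.

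Jund, the member of the family that is expressed steadily in most tissues, had the smallest spread of the set. On its brighter probe the controls were at 11.94, 12.25 and 12.35 and the TBI rats at 12.58, 12.90 and 12.73, so that these groups did not overlap. The MASM + TBI rats spanned both, at 12.77, 12.71, 12.40 and 11.83. The log2 fold change of TBI over control was 0.56 (SE 0.241, adjusted p = 0.211). The second probe of Jund, which reads the same gene at a dimmer spot, gave a larger difference. It was at 6.55, 6.88 and 6.86 in controls, 7.60, 8.43 and 7.86 in TBI rats and 8.36, 7.81, 7.85 and 6.96 in MASM + TBI rats. On this probe all irradiated rats of both groups were above all controls, with log2 fold changes over control of 1.20 (SE 0.342, adjusted p = 0.0823) for TBI and 0.98 (SE 0.32, adjusted p = 0.158) for MASM + TBI. The probes of Jund thus had the same direction, and neither passed the adjusted test.

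Fos, the partner of the Jun proteins, had the widest range of the set, 6.59 on the log2 scale or 96.4-fold between the lowest and the highest rat. Controls were at 5.20, 8.73 and 8.53, TBI rats at 8.38, 8.74 and 7.96, and MASM + TBI rats at 11.79, 9.49, 9.15 and 6.15. TBI rats 1 and 3 lay within the control range and TBI rat 2 was only just above the highest control, while 3 of 4 MASM + TBI rats were above every control and every TBI rat. Fos was the only gene of the 8 whose mean was higher in MASM + TBI than in TBI rats, by 0.78 (SE 1.30, interval -2.18 to 3.75, adjusted p = 0.803), and without MASM + TBI rat 1 this difference was -0.096. The log2 fold change of TBI over control was 0.87 (SE 1.39, adjusted p = 0.742), and it changed sign to -0.27 without control rat 1.

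Atf3, a stress-induced factor of the ATF family that pairs with Jun proteins and represses many of its targets, was high and low in much the same rats as Jun. It was at 7.92, 10.70 and 8.96 in controls, 9.50, 12.20 and 11.32 in TBI rats and 12.15, 11.57, 11.45 and 7.20 in MASM + TBI rats. The 3 MASM + TBI rats numbered 1 to 3 were above every control, and rat 4 was the lowest of all 10. The log2 fold changes over control were 1.82 (SE 1.36, adjusted p = 0.46) for TBI and 1.40 (SE 1.27, adjusted p = 0.677) for MASM + TBI. Without MASM + TBI rat 4 the latter was 2.53 (adjusted p = 0.221).

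Egr2 is a zinc finger factor best known from myelinating cells and lymphocytes. It was close to the detection limit in control rat 1 and MASM + TBI rat 4. The controls were at 4.12, 5.26 and 4.82, the TBI rats at 4.70, 7.07 and 5.83, and the MASM + TBI rats at 6.80, 5.21, 5.95 and 3.54. It was well above background in all rats but MASM + TBI rat 4. The groups overlapped, and the log2 fold change of TBI over control was 1.14 (SE 0.858, adjusted p = 0.463).

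Myc, which drives ribosome synthesis and entry into the cell cycle, had the lowest adjusted p of the 8 genes in TBI versus control on the brightest probes. Controls were at 8.55, 9.97 and 8.99, TBI rats at 10.37, 10.82 and 11.65, and MASM + TBI rats at 10.57, 10.64, 11.26 and 9.58. All TBI rats and 3 of 4 MASM + TBI rats were above every control, and MASM + TBI rat 4 was under control rat 2. The log2 fold changes over control were 1.78 (SE 0.518, interval 0.59 to 2.96, adjusted p = 0.0878) for TBI, a 3.42-fold difference, and 1.34 (SE 0.484, adjusted p = 0.201) for MASM + TBI. The value for TBI passed with arrays scaled to their 75th percentile (adjusted p = 0.0426) and with slide as a random block (adjusted p = 0.0313), and missed in 8 other alternatives, up to an adjusted p of 0.3. Between MASM + TBI and TBI rats Myc differed by -0.43 (SE 0.484, interval -1.54 to 0.67).

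Ier2, a small nuclear protein induced by growth factors, was at 11.70, 13.15 and 12.96 in controls. The TBI rats were at 13.11, 13.76 and 13.58 and the MASM + TBI rats at 13.16, 13.33, 13.33 and 12.57. Control rat 2 was above TBI rat 1, the lowest of its group, so the groups overlapped. The log2 fold change of TBI over control was 0.88 (SE 0.388, adjusted p = 0.219), and without control rat 1 it was 0.42.

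**Figure D2:**
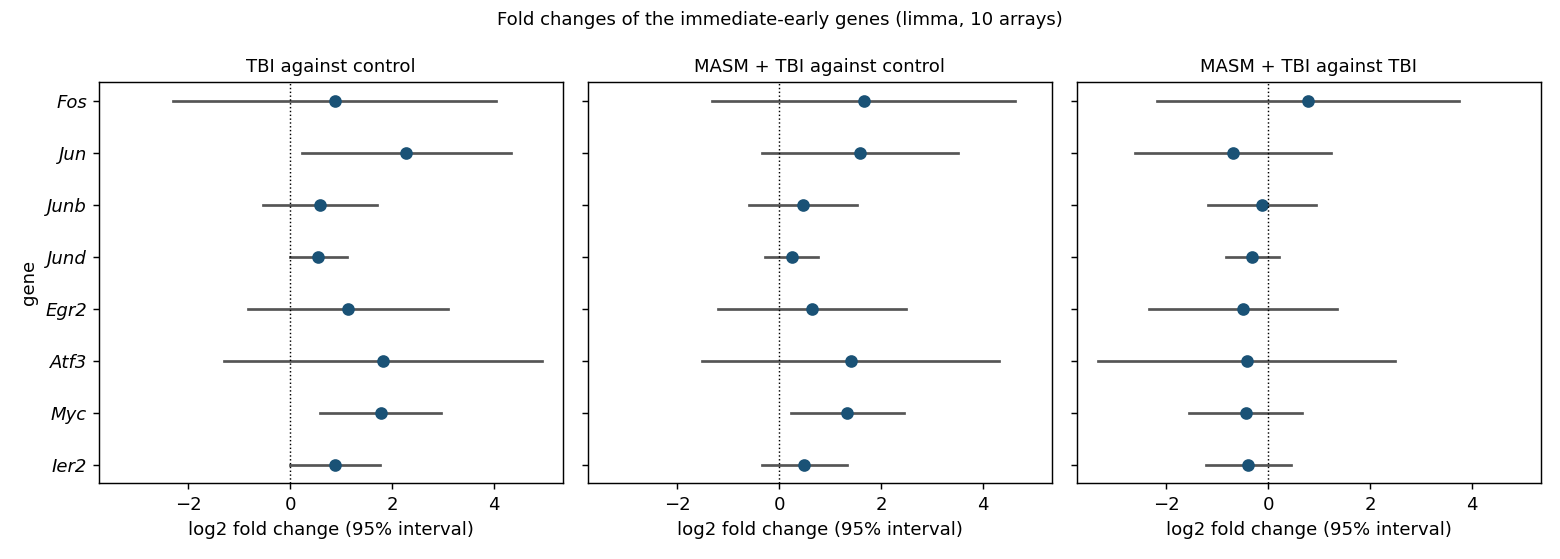
Log2 fold change (horizontal axis) of the 8 genes in each comparison, with the 95% interval from limma as a line. All 8 estimates are above 0 against control in both irradiated groups, 7 of 8 are below 0 for MASM + TBI against TBI, and the intervals are wide beside the estimates.

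The counts that follow take the brightest probe of each gene. In TBI versus control 0 of 8 genes passed the adjusted test, against 5.63% of all 40945 probes. At an unadjusted p under 0.05 the count was 3 (Jun, Jund and Myc), against 23.5% of all probes. With a fold change of at least 1.5 upward as well, the threshold used in the study, Jun and Myc remained, 2 of 8, against 6.53% of probes. The TBI rats were all above the controls for 3 of 8 genes (Jun, Jund and Myc), against 11.3% of probes. All 8 estimates were above 0 against 45.6% of probes, and the median over the 8 was 1.01, against -0.03 over all probes.

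In MASM + TBI versus control 0 of 8 passed the adjusted test (2.99% of probes), and Myc was the only gene of the 8 past the unadjusted threshold (3.52% of probes upward). For 0 of 8 genes were all MASM + TBI rats above all controls (9.35% of probes). The dimmer probe of Jund, outside these counts, was the exception to both, with no overlap and an unadjusted p of 0.0146 in limma at 1.97-fold. The median over the 8 genes was 0.99, against 0 over all probes. In MASM + TBI versus TBI 0 of 8 genes passed the adjusted test (1.63% of probes), 0 passed the unadjusted threshold (7.98%), 0 were free of overlap (18.5%), and the median was -0.40, against 0.04. An unadjusted p under 0.05 was reached by 1 gene in the former comparison and 0 in the latter, against 17% of probes in each. The comparisons share rats, so that their values are not independent. By group means the order was TBI over MASM + TBI over control for 7 genes, and MASM + TBI over TBI over control for Fos, and no neighbours in these orders differed past the adjusted threshold.

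These counts turned on single rats. The rats singled out below were the lowest of their groups for all or nearly all of these same genes. Leaving out a low irradiated rat thus favours separation of these genes by construction. The shares of all probes have no such choice behind them and are not a like comparison. Without MASM + TBI rat 4, the remaining rats of that group were all above the controls for 6 of 8 genes (Fos, Jun, Jund, Atf3, Myc and Ier2), against 11.6% of probes, and 4 genes (Fos, Jun, Atf3 and Myc) passed the unadjusted threshold, against 3.43%. Without TBI rat 1, the TBI rats were all above the controls for 7 of 8 genes, with Fos the exception, against 16.7% of probes, and 3 genes (Jun, Myc and Ier2) passed the unadjusted threshold (6.95%). Without control rat 1, TBI was free of overlap with control for Jun, Jund and Myc (15.7% of probes), but only Myc passed the unadjusted threshold (5.66%). In MASM + TBI versus control without control rat 1, 0 genes were free of overlap (15% of probes) and 0 passed (3.45%). With any of the 10 rats left out, no gene of the 8 reached an adjusted p under 0.05, and the lowest was 0.0714, for Jun and Myc in TBI versus control without MASM + TBI rat 4.

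Within the slide that held more than a single group, MASM + TBI rat 3 was above all 3 controls for 8 of 8 genes, against 37.8% of all probes. Its difference from the control mean was 2.64 for Jun, 2.26 for Atf3, 2.09 for Myc, 1.67 for Fos and 0.22 for Jund. It is a single rat, and with slide as a fixed block the adjusted p of these differences ran from 0.264 for Myc to 0.869 for Jund.

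The spread between rats of a group was the clearest feature of the set. The within-group SD was 1.86 for Fos, 1.83 for Atf3, 1.20 for Jun and 1.15 for Egr2, on the log2 scale, and 0.69, 0.66, 0.52 and 0.31 for Myc, Junb, Ier2 and Jund. The median over the 8 genes was 0.92, while it was 0.20 over the 21332 probes well above background on every array, of which 90% lay under 0.43. Jund alone was under that mark. Differences within groups made up 39.1% of the sum of squares of Myc, 55.2% of Jun, 59.9% of Jund and 61.7% of Ier2, and 80.9% to 83.7% of Atf3, Egr2, Junb and Fos, beside a median of 61.3% over the same probes.

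**Figure D3:**
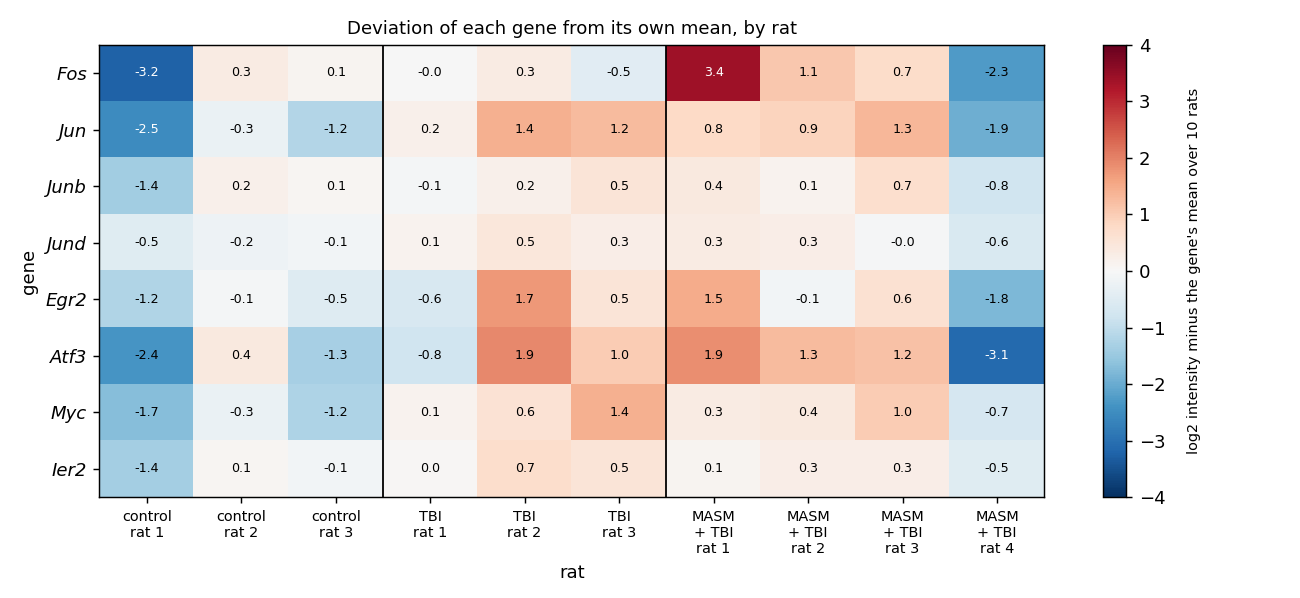
Colour and numbers give the log2 intensity of each gene (rows) minus that gene's mean over the 10 rats, for each rat (columns), with lines between the groups. Control rat 1 and MASM + TBI rat 4 are below the mean for all 8 genes, and TBI rat 2 and MASM + TBI rat 1 are above it for all 8.

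The genes varied together from rat to rat. Over the 28 pairs of the 8 genes, Pearson's r over the 10 rats ran from 0.54 to 0.93 with a median of 0.80, and after removal of the group means from 0.54 to 0.96, also with a median of 0.80. The closest pair was Jun and Atf3 (0.96 within groups), followed by Egr2 with Atf3 (0.92) and Junb with Ier2 (0.92), and the loosest were Myc with Fos and Myc with Jund (both 0.54). These are descriptions over 10 arrays, on which all genes of a rat share an RNA sample and a hybridisation.

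Control rat 1 held the lowest control value for 8 of 8 genes, where it held the lowest for 34.2% of the 8432 genes well above background on every array. TBI rat 1 was the lowest TBI rat for 7 of 8 (29.7% of those genes), and MASM + TBI rat 4 was the lowest of its group for 8 of 8 (21.3%). Of 33 other immediate-early genes above background, the same rats were lowest for 25, 22 and 23. Among 25 Myc target genes, in contrast, they were lowest for 6, 2 and 3. Scaled to unit spread and averaged over the 8 genes, control rat 1 stood at -1.71 and MASM + TBI rat 4 at -1.31, while the other rats lay between -0.44 and 0.90.

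**Figure D4:**
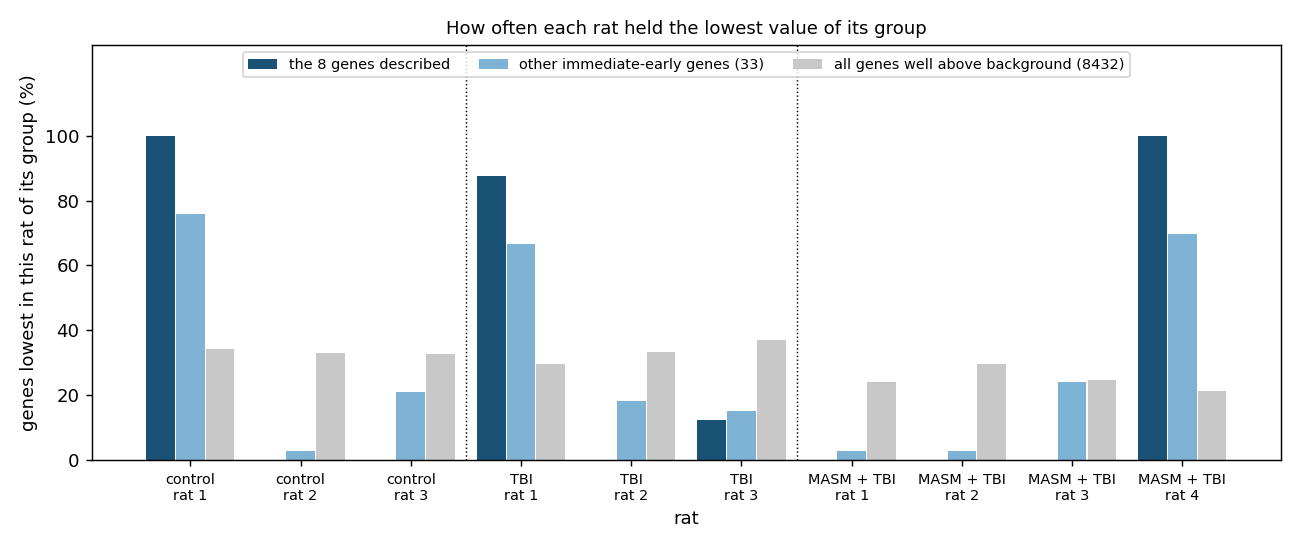
Share of genes (vertical axis, percent) for which each rat held the lowest value of its own group, for the 8 genes, for 33 other immediate-early genes and for all 8432 genes well above background on every array. Control rat 1 and MASM + TBI rat 4 reach 100% for the 8 genes, and 34.2% and 21.3% over all genes.

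Other measures of these rats are given beside this pattern. The raw median log2 intensity was 4.72 on the array of control rat 1, the lowest of the 10, and 4.87 on that of MASM + TBI rat 4, and the range over all arrays was 4.72 to 5.82. The summed log2 signal of 10 Kupffer cell and macrophage markers, all well above background on every array, was 16.50, 17.12 and 16.86 in control rats 1 to 3, 16.56, 17.46 and 17.16 in TBI rats 1 to 3, and 16.47, 16.55, 16.27 and 16.20 in MASM + TBI rats 1 to 4. By these sums the lowest rats were also control rat 1, TBI rat 1 and, by a small margin, MASM + TBI rat 4. MASM + TBI rats 3 and 4 had the same mean over these markers, 10.99. Yet rat 3 was in the top 3 of the 10 rats for 6 of the 8 genes. T lymphocyte markers ran from 9.41 to 9.84 in controls, 8.88 to 9.33 in TBI rats and 8.24 to 8.95 in MASM + TBI rats, with 4 to 7 of 10 well above background. The part of these measures in the differences of the 8 genes was not tested.

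The genes whose levels were most like the mean of the 8 scaled genes over the 10 rats, among 8425 candidates, were Csrnp1 (r = 0.956), Chac1 (0.94), Ppp1r15a (0.935), Igfbp1 (0.927) and C1qtnf12 (0.926). Csrnp1 is itself an early-response nuclear protein, Chac1 degrades glutathione and is induced in the integrated stress response, Ppp1r15a directs the phosphatase that reactivates the initiation factor eIF2, and Igfbp1 is a secreted binding protein of insulin-like growth factors made by hepatocytes. Chac1 was at 6.03, 8.68 and 6.82 in controls, 10.51, 11.13 and 11.89 in TBI rats and 11.34, 11.00, 11.70 and 6.27 in MASM + TBI rats. Again MASM + TBI rat 4 was at the control level, and the other irradiated rats were above every control. Gene by gene, Jun was closest to Chac1 (0.974), Atf3 to Csrnp1 (0.958), Jund to the orphan receptor Nr4a1 (0.912), Myc to Tcim (0.971) and Tat (0.97), Ier2 to Pdk4 (0.946), Junb to Paqr3 (0.909) and Fos to Phlda1 (0.893). Egr2 was left out of this search because it was not well above background on every array. These genes were picked for their likeness on the same 10 arrays, and no test was made of it.

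Around the set, 39 of 42 other immediate-early genes had a probe. In TBI versus control 4 passed upward, against 2.44% of all probes, and 0 downward, and 30 of the 39 estimates were above 0, with a median of 0.56 against -0.03 over all probes. In MASM + TBI versus control 3 passed upward, against 1.26% of all probes, and 0 downward (median 0.27, against 0), and in MASM + TBI versus TBI 0 passed and the median was -0.20, against 0.04. The antiproliferative gene Btg2 was at 9.0, 10.39 and 9.52 in controls, 12.14, 13.13 and 13.02 in TBI rats and 12.61, 12.67, 12.93 and 10.80 in MASM + TBI rats, and all irradiated rats were above all controls. Against control it rose by 3.13 (SE 0.597, adjusted p = 0.0244) in TBI rats and by 2.62 (SE 0.559, adjusted p = 0.0481) in MASM + TBI rats. Sgk1, a kinase induced by glucocorticoids and serum, rose by 1.57 (SE 0.277, adjusted p = 0.0188) after TBI. Id1, an inhibitor of helix-loop-helix factors, rose by 1.33 (adjusted p = 0.0479) and 1.36 (adjusted p = 0.0495), and Tob1, a relative of Btg2, by 0.56 (adjusted p = 0.033) and 0.78 (adjusted p = 0.00963). Nr4a1 missed the threshold after TBI, when it was 3.83 higher on the log2 scale (adjusted p = 0.162, SE 1.46). Gadd45b, a stress-induced regulator of stress kinases, missed it at 1.54 (SE 0.44, adjusted p = 0.0819).

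Of 16 other AP-1, ATF and small Maf genes, Creb1 rose and Mafg fell in both irradiated groups against control, where 5.63% (TBI) and 2.99% (MASM + TBI) of all probes passed in either direction. Creb1, the factor that reads cAMP response elements, rose by 0.41 (adjusted p = 0.0488) in TBI rats and by 0.45 (adjusted p = 0.0425) in MASM + TBI rats. Mafg, a small Maf partner, fell by 0.44 (adjusted p = 0.033) and 0.42 (adjusted p = 0.0408). The median of the list was 0.07 and -0.01, against -0.03 and 0 over all probes. Of the Fos relatives that also form AP-1, Fosl2 had a log2 fold change of 0.92 (adjusted p = 0.231) after TBI, and Fosl1 was well above background on only 1 of 10 arrays.

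Upstream, 1 of 20 kinases and factors passed in TBI versus control, a share near the 5.63% of all probes, and 0 in the other comparisons. Map2k6, an activator of the p38 kinases, fell by 1.42 (SE 0.212, adjusted p = 0.00978) after TBI. Of 14 partners and restrainers 1 passed, against the same 5.63%. Mnt, which competes with Myc for Max, rose by 1.03 (SE 0.237, adjusted p = 0.0444) after TBI. Among 25 Myc targets, 2 passed upward in each comparison with control, against 2.44% (TBI) and 1.26% (MASM + TBI) of all probes, with medians of 0.15 and 0.24 against -0.03 and 0. The transferrin receptor Tfrc was at 9.86, 9.91 and 10.05 in controls, 11.03, 11.18 and 11.17 in TBI rats and 11.62, 11.46, 11.46 and 11.24 in MASM + TBI rats. All irradiated rats were above all controls, MASM + TBI rat 4 among them, although it was the lowest of its group. Against control Tfrc rose by 1.19 (SE 0.109, adjusted p = 0.00139) in TBI rats and by 1.51 (SE 0.102, adjusted p = 0.000478) in MASM + TBI rats. Its transcript is also known to be stabilised when iron is low. The cyclin Ccnd2 rose by 0.47 (adjusted p = 0.0419) in TBI rats. Wdr43, a ribosome assembly factor, rose by 0.67 (adjusted p = 0.0218) in MASM + TBI rats against control. Of 26 AP-1 and Egr targets 0 passed in any comparison, and their medians were 0.13 and -0.15 against control, beside -0.03 and 0 over all probes. Of these 26, 19 were well above background on at least 1 array of the TBI and control groups, and 18 on at least 1 of the MASM + TBI and control groups. The counts and medians include the others, among them Il6, Ptgs2 and Thbs1, for which a change could not be measured. With each rat left out in turn, Tfrc passed in both comparisons with control in all 10 fits. So did Map2k6 after TBI and Tob1 in MASM + TBI versus control. Under the other settings varied, Tfrc passed in 9 of 10 after TBI and in 11 of 11 in MASM + TBI versus control. There Map2k6 after TBI passed in 9 of 10, and Tob1 in MASM + TBI versus control in 8 of 11. The other calls named here depended on which rats were in the fit. After TBI, Sgk1 passed in 7 of 10 fits, Btg2 in 6, Tob1, Mafg and Ccnd2 in 3 each, Id1 and Mnt in 2 each and Creb1 in 1. In MASM + TBI versus control, Wdr43 passed in 5 of 10 fits, Mafg, Id1 and Creb1 in 2 each and Btg2 in 1. All of these were lost without control rat 1 and also without control rat 3. Without control rat 2 all but Btg2 after TBI were lost. With control rat 1 left out the adjusted p in limma ran from 0.0558 for Sgk1 to 0.129 for Id1, both after TBI.

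**Figure D5:**
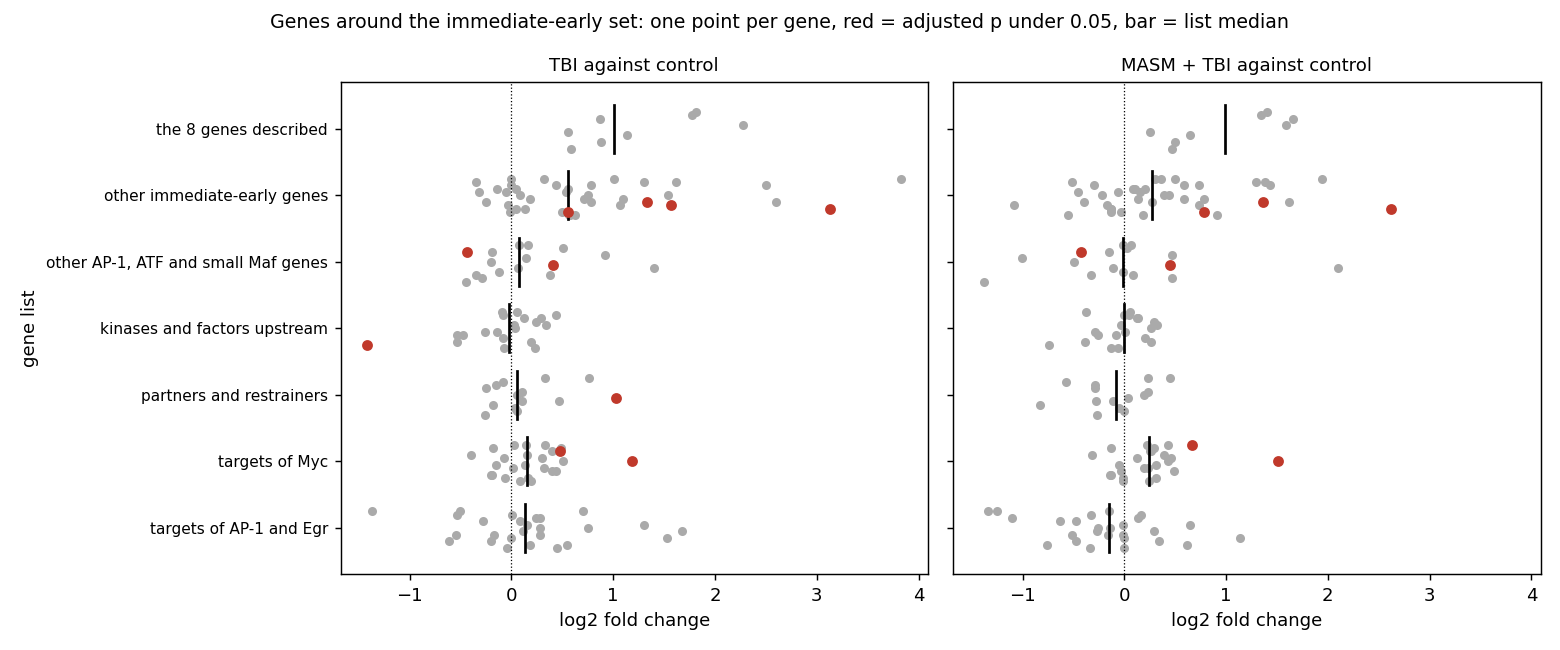
Log2 fold change (horizontal axis) of each measured gene, grouped by list, for TBI and for MASM + TBI against control; red points have an adjusted p under 0.05 and black bars are list medians. The medians of the 8 genes are 1.01 and 0.99 with no red point, and the largest red point is Btg2 at 3.13 after TBI.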

How the data were processed

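RNA from the livers of 10 rats, in 3 groups of 3, 3 and 4, was labelled with Cy3 and hybridised, with an array for each rat. The authors deposited a linear intensity for each spot, made by Feature Extraction 10.7.3.1 (file headers) with the background subtracted and without normalization between arrays; the series table held the same values. The arrays carried 45018 spots each, of which 1639 were controls. Groups came from the labels and slides from the file headers.

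Intensities without control and outlier spots (76 to 112 per array) were log2 transformed, normalized by quantiles and averaged per probe. Of 41012 probes, 40945 had a value on every array. The files hold accessions, and matching them to RefSeq gave 16950 probes a symbol. The brightest probe stood for a gene. Limma 3.58.1 (R 4.3.3) fitted a mean for each of 3 groups, with Benjamini-Hochberg adjustment over all probes. Plots were drawn with matplotlib 3.10.9 in Python 3.11.15. The model was tested on simulated data. Array number limits the precision. The p-values set a group difference against the spread between rats within groups. They do not account for a difference between the slides of the TBI and control arrays.

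The genes, lists and comparisons were chosen with earlier results of these data known. Named genes are the whole set, list genes with an adjusted p under 0.05 in at least 1 comparison and up to 2 more a list, and the genes most like each member well above background on all arrays (3) and like the mean (5). Some of the closest are left out of the text for space. The settings varied were the scaling (75th percentile), the background (normexp on median pixel intensities, offset 50), the source (series table) and the filter (dim probes left out). Further settings were the groups in the fit, the test (Welch's t-test) and the prior (trended, robust). The others were a block by slide or replicate number, the probe (mean over a gene), and the rats (each left out in turn).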

Additional observations from a re-analysis of the deposited data

Results flagged for a closer look

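In the MASM + TBI group, the gap of the lowest or the highest rat, whichever was larger, to its nearest neighbour, divided by the range of the group, passed Dixon's 95% critical value for 4 samples in 4 of 19 genes tested; chance alone passes about 1 group in 20. For Jun the ratio was 0.84, with rat 4 at 10.49 and the other rats at 13.23, 13.32 and 13.75. For Atf3 it was 0.859, with rat 4 at 7.20 and the others at 11.45 to 12.15. Btg2 gave 0.849, again through rat 4, at 10.80 beside 12.61, 12.67 and 12.93. For Mnt it was 0.906 and the low rat was rat 1, at 6.49 beside 7.24, 7.26 and 7.32. The genes vary together, so these results are not independent, and groups of 3 rats were not examined in this way.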

How the results depend on the processing

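Of 488 fold changes of the 8 genes under alternatives, 472 kept their direction and their side of the threshold, 2 (Myc in TBI versus control, above) passed it and 14 changed sign, all at an adjusted p over 0.6. The number of genes of the set passing in TBI versus control was 0, and 1 with 75th percentile scaling and with slide as a random block (consensus correlation -0.133); the cause was not tested. With 75th percentile scaling 4 of the set were past the unadjusted threshold in TBI versus control instead of 2, and 19, 4 and 2 pathway genes passed in TBI versus control, MASM + TBI versus control and MASM + TBI versus TBI instead of 10, 7 and 0, with a shift of the median probe of -0.07, -0.01 and 0.08. With slide as a random block these were 25, 17 and 3, and with slide as a fixed block 2 passed in MASM + TBI versus control. Normexp correction gave 12 there, and the model of only the groups compared 6 in TBI versus control. Welch's t-test was run in place of the t-test of the study, whose form is not named. Under it 1 gene of the set was past the unadjusted threshold in TBI versus control and 0 in MASM + TBI versus control. After adjustment 0 and 1 pathway genes passed in these comparisons. With the mean over all probes of a gene, 2 of the set were past the unadjusted threshold in MASM + TBI versus control.

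Replicate numbers left no sign of pairing in the values. Correlations of deviations ran from -0.13 to 0.17 between same-numbered rats of different groups. Between differently numbered rats of different groups they ran from -0.13 to 0.15. These values cannot show whether same-numbered rats were handled together. With the replicate block, in which MASM + TBI rat 4 has no partner and drops out of the estimate, 4 of the set were past the unadjusted threshold in each comparison with control and 0 passed the adjusted test. In the same fit 2 pathway genes passed in MASM + TBI versus control, and for MASM + TBI versus TBI Jun, Junb, Egr2 and Atf3 changed sign, to 0.047, 0.18, 0.12 and 0.72.

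With each rat left out in turn, the set had 1 to 3 genes past the unadjusted threshold and 3 to 7 without overlap in TBI versus control, 0 to 4 and 0 to 6 in MASM + TBI versus control, and 0 and 0 to 1 in MASM + TBI versus TBI. Pathway genes passing numbered 2 to 14, 2 to 9 and 0 to 5. Fold changes that changed sign ran from -0.27 to 1.49 for Fos in TBI versus control and from -0.047 to 0.77 for Junb in MASM + TBI versus control. In MASM + TBI versus TBI they ran from -0.096 to 1.78 for Fos, -1.07 to 0.047 for Jun, -0.31 to 0.18 for Junb, -1.08 to 0.12 for Egr2 and -1.17 to 0.72 for Atf3. Signal over background limits Egr2 in MASM + TBI rat 4.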
